A study of Bos taurus with 8 samples.

Results

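The insulin-like growth factor (IGF) axis is described here by 10 genes of the 21880 in the bovine count matrices. They were chosen by symbol and each symbol named 1 row. The ligands were IGF1 (ENSBTAG00000011082) and IGF2 (ENSBTAG00000013066), the receptor was IGF1R (ENSBTAG00000021527), and the binding proteins were IGFBP1 (ENSBTAG00000046768), IGFBP2 (ENSBTAG00000005596), IGFBP3 (ENSBTAG00000003994), IGFBP4 (ENSBTAG00000008611), IGFBP5 (ENSBTAG00000054218), IGFBP6 (ENSBTAG00000021467) and IGFBP7 (ENSBTAG00000019368). All 10 were detected, and their unique molecular identifiers (UMIs) were summed per donor animal, annotated cell type and timepoint.

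IGF1 and IGF2 are secreted growth factors that act through the tyrosine kinase receptor encoded by IGF1R and, below it, through insulin receptor substrates, PI3K and AKT. In skeletal muscle this pathway is known for promoting growth of fibres, and proliferation and differentiation of myogenic progenitors. IGFBP1 to IGFBP6 bind the ligands with high affinity and can store, carry or block them, with IGFBP6 known for its preference for IGF2. IGFBP7 is a related secreted protein that binds IGFs weakly.

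Muscle was taken from 10 Belgian Blue cattle, calves and adults of both sexes, all without a treatment or engineered allele in the labels. Cells were sequenced straight after isolation (Muscle), after 72 h of culture in a growth medium free of serum (P0), and at passages 2, 5 and 8 (P2, P5 and P8), in 5 pooled libraries of 10x 3′ UMIs, 1 per timepoint. Donor 3 was present at Muscle alone. From P2 onward the cells of donors 5, 6 and 10 had been sorted as satellite cells (SC cultures), those of donors 4, 7 and 8 as fibro-adipogenic progenitors (FAP cultures), and those of donors 1, 2 and 9 were left unsorted. By the study's methods, cells were plated on fibronectin before the sort, then SC cultures grew on laminin and FAP cultures on collagen. Coating and passage therefore changed together from P0 to P2 in the sorted cultures. The sources used here do not say whether the growth medium held an IGF. Each timepoint was a single library, so the timepoint and its library cannot be told apart. A summed level alone does not tell less RNA per cell from a smaller share of the cells that hold it. The donors are separate animals, so p-values measure the spread between animals within these libraries. The main fits had no term for donor, so sums of the same animal within a fit entered as independent.

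The cell tables held 36129 cells under 11 cell type names, among them satellite cells (SCs), fibro-adipogenic progenitors (FAPs), vascular and lymphatic endothelial cells (VECs and LECs), smooth muscle-mesenchymal cells (SMMCs) and monocytes/macrophages. The median cell held 4184 UMIs at Muscle and between 18340 and 27239.5 at the later timepoints. Between libraries, 129 cell barcodes were shared. Sums of at least 10 cells of a donor were kept, and levels are given as CPM, the share of a sum's UMIs scaled to a fixed total and corrected by TMM factors over all these sums. For the types named above, the summed level of the type's marker list was highest in that type at both timepoints, with an exception at P0. There the median of the 7 SC markers was 179.8 CPM in SCs and 315 CPM in SMMCs, though none of the 7 was at 0 in SCs. Tenocytes, glial cells and myocytes had too few cells per donor for sums, so their lists could not be checked. In monocytes/macrophages the 3 neutrophil markers had a median sum of 171 CPM at Muscle and 4611 CPM at P0, so this group is described by its name in the cell tables only.

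In fresh muscle, IGF2 was the more widespread ligand. Its mean level was 2242 CPM in VECs, 1564 CPM in SCs, 1102 CPM in FAPs and 476 CPM in SMMCs. Among the 10 donors VECs spanned 1870.4 to 2785 CPM with a median of 2148 CPM, a narrow range. SCs ran from 665 through a median of 1437 to 2801 CPM, FAPs from 369.6 through 1182 to 1929 CPM, and SMMCs from 60.3 through 412 to 905 CPM. VECs lay above SCs in 8 of 10 donors, SCs above FAPs in 8 of 10 and FAPs above SMMCs in 10 of 10, although the ranges of neighbouring types overlapped. The annotation was built from the same expression values, so differences between types are given as a description, without a test. Lymphocytes, 188 cells in all, carried 103 ± 94.4 CPM of IGF2 (SD, n = 10), and monocytes/macrophages 21.5 ± 21.2 CPM (SD, n = 10).

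IGF1 had another order. FAPs held 87.7 ± 62.0 CPM (SD, n = 10), LECs 69.0 ± 22.3 CPM (SD, n = 4) and monocytes/macrophages 65.9 ± 36.4 CPM (SD, n = 10), and these 3 were not ordered consistently within donors, since FAPs were above LECs in 2 of 4 and LECs above monocytes/macrophages in 2 of 4. Monocytes/macrophages exceeded SMMCs, at 17.9 CPM, in 10 of 10 donors. SCs averaged 13.6 ± 18.3 CPM with 3 donors at 0, lymphocytes 4.78 CPM and VECs 1.81 CPM. The UMIs behind these means were few, 718 in FAPs, 179 in monocytes/macrophages, 57 in SCs and 23 in LECs.

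The receptor IGF1R was thinly sampled everywhere. Its mean at Muscle ranged from 4.79 CPM in SMMCs to 12.1 CPM in LECs among the 6 types, and no UMI was found in lymphocytes. Rank order between neighbouring types held in 3 to 6 of the donors compared, apart from the small LEC group, so no order could be read. In total 42 UMIs were counted in muscle FAPs and 16 in muscle SCs.

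Each binding protein had its own distribution over muscle cell types. Among the types summed by donor, IGFBP6 was most abundant in FAPs, at 5335 ± 1553 CPM (SD, n = 10), with a lowest, median and highest donor of 3187, 4949 and 8315 CPM. Over pooled counts the 23 muscle cells named tenocytes held 6095 CPM of it and FAPs 5929 CPM. All 10 donors placed FAPs above SCs, and the 2 ranges did not overlap. SCs, VECs and SMMCs followed with 1433, 1363 and 1073 CPM, and they could not be ordered, as SCs exceeded VECs in 5 of 10 donors and VECs exceeded SMMCs in 5 of 10. IGFBP7, which is also known as a product of blood vessels, was highest in SMMCs at 4045 ± 627 CPM (SD, n = 10), above FAPs (2391 CPM) in 10 of 10 donors. VECs held 2093 CPM and LECs 1451 CPM. SCs were far lower, at 291 ± 95.8 CPM, and close to lymphocytes at 207 ± 161 CPM, which they exceeded in 7 of 10 donors.

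IGFBP4 was led by LECs, at 551 ± 81.3 CPM (SD, n = 4), whose range from 481 to 662 CPM did not overlap that of FAPs, with 179.6 CPM. It was nearly missing from SCs, at 3.47 ± 3.52 CPM and 14 UMIs. IGFBP5 averaged 437 ± 393 CPM in LECs and 293 ± 209.8 CPM in FAPs, and donors differed widely, from 19.1 CPM to 566 CPM in FAPs. SCs carried 64.6 CPM and VECs 39.0 CPM of IGFBP5, while no UMI was counted in lymphocytes. IGFBP3, the main carrier of IGFs in blood, reached 240.5 ± 191 CPM in FAPs and 127 ± 109.6 CPM in VECs, with FAPs above VECs in 8 of 10 donors.

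IGFBP1, best known as a liver product, was most abundant in SCs. Every donor had it in muscle SCs, from 34.1 through a median of 115 to 199 CPM, and 298 UMIs were counted. None of the other 5 types averaged above 0.561 CPM at Muscle: FAPs held 2 UMIs, VECs 4, and LECs, SMMCs and monocytes/macrophages none. The 23 muscle cells named tenocytes, too few to be summed by donor, held 5 UMIs, or 35.2 CPM with an exact binomial interval of 11.4 to 82.2 CPM that covers counting error only. IGFBP2 was scarce at Muscle, with a mean of 14.8 CPM in SMMCs, 7.32 CPM in VECs, 4.83 CPM in SCs and 0.906 CPM in FAPs, and SMMCs exceeded VECs in 7 of 10 donors.

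**Figure D1:**
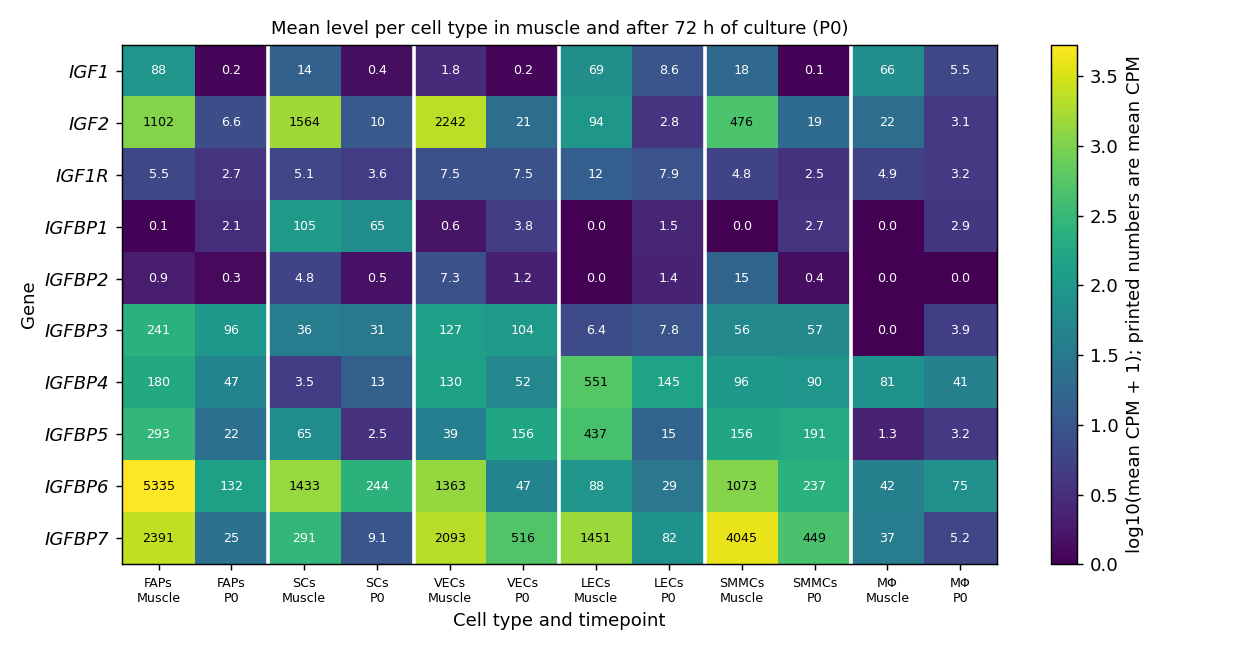
Mean level of each gene (rows) in 6 cell types at Muscle and P0 (columns), as colour on a log10(CPM + 1) scale with the mean CPM printed in each field; MΦ are monocytes/macrophages. IGF2, IGFBP6 and IGFBP7 were bright at Muscle in FAPs, VECs and SMMCs and darker at P0, while IGFBP1 was seen in SCs at both timepoints (105 and 65.1 CPM). Colours may be compared along a row, not between genes, since the yield of 3′ UMIs depends on the transcript.

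Counted over cells thinned to 2000 UMIs each, 90.8% ± 2.97 of muscle VECs had an IGF2 UMI (SD, n = 10), as did 71.8% ± 15.4 of SCs, 52.4% ± 15.3 of FAPs and 27.8% ± 13.3 of SMMCs, against 8.53% ± 6.70 of lymphocytes. Before thinning the shares were 94.4%, 81.8%, 64.4% and 26.8%, and 14.1% of lymphocytes. The median depths were 2778.5 UMIs in VECs and 4407 in lymphocytes, and 336 of 1166 VECs and 2 of 188 lymphocytes were too shallow to be thinned. IGFBP6 was seen in 96.5% of FAPs and 10.7% of lymphocytes, and IGFBP7 in 99.6% of SMMCs and 13.3% of lymphocytes. IGFBP1 was found in 18.2% ± 9.27 of SCs. Before thinning 25.8% of SCs and 0 of 188 lymphocytes had an IGFBP1 UMI, and a count of 0 allows a share of lymphocytes with a UMI of up to 1.60% by counting error, which sets no limit on cells expressing the gene.

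After 72 h of culture IGF2 fell in each of the 4 types in which it was tested. In FAPs, IGF2 was 6.58 ± 2.72 CPM at P0 (SD, n = 9), with a lowest, median and highest donor of 3.65, 6.61 and 11.5 CPM, without overlap with the muscle values. The edgeR quasi-likelihood test gave a log2 fold change of -7.38 (SE 0.42, 166-fold, adjusted p = 5.6e-12). SCs fell to 10.1 ± 5.12 CPM (log2 fold change -7.58, SE 0.38, 191-fold), VECs to 21.0 ± 7.14 CPM (-6.95, SE 0.16, 124-fold) and SMMCs to 18.9 ± 10.3 CPM (-5.05, SE 0.51, 33.0-fold). All 9 donors with both timepoints were lower at P0 in FAPs, SCs and VECs, and all 7 in SMMCs. In thinned cells 1.46% of FAPs, 2.36% of SCs, 6.60% of VECs and 4.55% of SMMCs still had an IGF2 UMI.

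IGF1 was almost lost from FAPs, where 21 UMIs were left over 9 donors and 3 donors had none. The mean was 0.153 CPM against 87.7 CPM, a log2 fold change of -8.96 (SE 0.47, edgeR adjusted p = 8.2e-13), lower in 9 of 9 donors. Monocytes/macrophages fell from 65.9 to 5.49 CPM (log2 fold change -3.39, SE 0.55, adjusted p = 7.8e-06 in edgeR), on 7 UMIs at P0. In SCs, VECs, SMMCs and LECs IGF1 lay under the filter for low counts, with 19, 1, 1 and 13 UMIs at P0 against 57, 9, 40 and 23 at Muscle.

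Altogether 7 of the 10 genes passed the filter in FAPs, and all 7 were called lower (adjusted p under 0.05 and an absolute log2 fold change above 1), where 22.5% of the 9208 tested genes were. The filter keeps a gene that is high in a single group, so these counts follow in part from it and are given as a description. In SCs 6 were tested and 4 called lower, with 18.5% of all tested genes called lower. VECs had 6 tested, 4 lower and 1 higher, beside 19.6% and 15.6% of all genes. SMMCs had 6 tested and 3 lower (21.3% of all genes), monocytes/macrophages 3 tested and 2 lower (20.4%), and LECs 4 tested and 4 lower (14.8%). The median log2 fold change of the genes tested was -5.31 in FAPs, -3.90 in SCs, -1.90 in VECs and -1.42 in SMMCs, where the median over all tested genes lay between -0.02 and 0.03.

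Among binding proteins, IGFBP7 and IGFBP6 fell everywhere they were called, but by unequal amounts. IGFBP7 in FAPs went from 2391 to 24.7 CPM, a log2 fold change of -6.57 (SE 0.23, 95.3-fold, edgeR adjusted p = 1.9e-16). The fall was 39.5-fold in SCs, 24.6-fold in LECs, 10.4-fold in SMMCs and 4.67-fold in VECs. At P0 VECs and SMMCs therefore kept means of 516 and 449 CPM, above LECs at 81.6 CPM, FAPs at 24.7 CPM and SCs at 9.07 CPM, and the ranges of SMMCs, LECs, FAPs and SCs did not overlap from one to the next. IGFBP6 in FAPs went from 5335 to 132 ± 21.4 CPM (log2 fold change -5.31, SE 0.16, adjusted p = 1.2e-18 in edgeR), and the highest P0 donor, at 179 CPM, was far below the lowest muscle donor. VECs fell 33.2-fold, SCs 7.19-fold, SMMCs 5.44-fold and LECs 4.26-fold. With that the order of types turned over: at P0 SCs (244 CPM) and SMMCs (237 CPM) held more IGFBP6 than FAPs, SMMCs in 7 of 7 donors. In monocytes/macrophages the level was 41.5 CPM at Muscle and 74.6 CPM at P0, with a log2 fold change of 0.54 (SE 0.33, adjusted p = 0.148 in edgeR), higher in 4 of 7 donors.

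IGFBP4 fell in LECs (551 to 145 CPM, log2 fold change -2.41, SE 0.18, in 3 of 3 donors with both timepoints), FAPs (179.6 to 46.6 CPM, -1.97, SE 0.27, in 8 of 9), VECs (129.8 to 52.4 CPM, -1.58, SE 0.29, in 7 of 9) and monocytes/macrophages (81.2 to 41.3 CPM, -1.05, SE 0.39, in 7 of 7). With donor as a replicate block the monocyte/macrophage change was -0.89 and was not called (adjusted p = 0.0644 in edgeR). In SMMCs it was 95.9 CPM at Muscle and 89.7 CPM at P0 (log2 fold change -0.40, SE 0.32). SCs, which had the least, did not pass the filter, but their level was higher at P0 in 9 of 9 donors, at 12.6 ± 4.41 CPM from 5.36 to 19.8 CPM. The 5 FAP markers in SCs, of which none was at 0, summed to 62.4 to 889 CPM over donors at Muscle and to 1089 to 2176 CPM at P0, and their part in this level and in the differences between SCs and FAPs was not tested.

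IGFBP5, a binding protein that also attaches to the matrix, moved in opposite directions in different types. In FAPs it went from a median of 294 to 25.4 CPM (log2 fold change -3.75, SE 0.49, lower in 9 of 9 donors). In SCs it went from 57.2 to 2.14 CPM (-4.95, SE 0.36, 9 of 9), and in LECs the fall was 41.1-fold on 142 and 24 UMIs. VECs instead held 39.0 ± 43.1 CPM at Muscle, with donors from 0 through 25.5 to 122 CPM, and 156 ± 178 CPM at P0, from 10.6 through 92.2 to 567 CPM. This rise was a log2 fold change of 1.83 (SE 0.76, edgeR adjusted p = 0.0373), seen in 8 of 9 donors, although the ranges overlapped broadly. SMMCs had 156 and 191 CPM with SDs of 151 and 239 CPM, and no change was called (log2 fold change -0.25, SE 0.74).

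IGFBP3 was tested in 4 types and was called in FAPs, from 240.5 to 96.2 CPM (log2 fold change -1.33, SE 0.43, edgeR adjusted p = 0.00930, 8 of 9 donors). SCs were at 36.2 and 30.6 CPM, VECs at 127 and 104 CPM, and SMMCs at 55.5 and 56.7 CPM, and in these the differences were smaller than the spread between donors. IGF1R and IGFBP2 passed the filter in none of the 6 types. IGF1R means were 5.50 CPM at Muscle and 2.72 CPM at P0 in FAPs, lower in 8 of 9 donors, on 42 and 351 UMIs, and 7.52 and 7.53 CPM in VECs. For IGFBP2, SMMCs had 46 UMIs at Muscle and 2 at P0, with means of 14.8 and 0.372 CPM. SCs had 18 and 16 UMIs, from far smaller totals at Muscle, with means of 4.83 and 0.507 CPM.

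**Figure D2:**
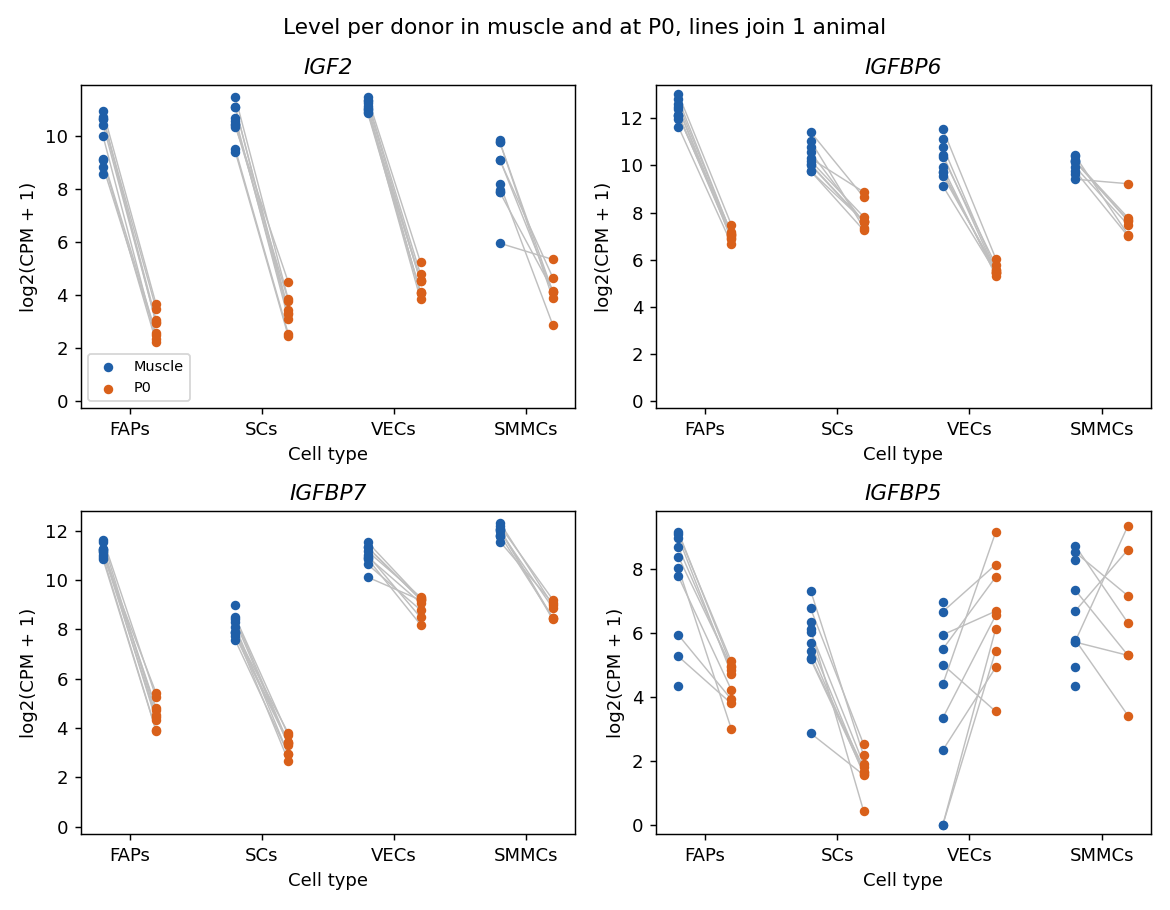
Level per donor, as log2(CPM + 1), at Muscle (blue) and P0 (orange) for IGF2, IGFBP6, IGFBP7 and IGFBP5 in 4 cell types; points are donors and lines join the samples of an animal. IGF2 fell in every animal, IGFBP7 fell least in VECs (4.67-fold), and IGFBP5 rose in 8 of 9 animals in VECs while falling in all 9 in FAPs and SCs.

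Other features changed together with these genes between the libraries. In FAPs the summed level of 6 muscle fibre genes ranged from 773 to 1311 CPM over donors at Muscle and from 0.618 to 1.80 CPM at P0, and in SCs from 264 to 889 CPM and from 0 to 2.48 CPM. The 10 early response genes known to be induced by tissue dissociation summed to 13883 to 34167 CPM in muscle SCs and 841 to 1081 CPM at P0, and to 5888 to 13495 and 772 to 1027 CPM in FAPs. Median mitochondrial shares per donor were 2.13% to 3.18% and 2.81% to 3.27% in FAPs. The part of RNA shed from other cells in the muscle levels was not tested. Lymphocytes at Muscle had medians of 75.4 CPM of IGF2 and 185 CPM of IGFBP7, above the P0 medians of FAPs (6.61 and 22.2 CPM) and SCs, whose median was 8.94 CPM of IGF2 and whose highest donor had 12.9 CPM of IGFBP7. Their median of 177 CPM of IGFBP6, with a highest donor at 938 CPM, lay between those of FAPs (132 CPM) and SCs (198 CPM) at P0. Blood cell types at Muscle differed widely in these genes. Over pooled counts the 51 neutrophils, with a median of 1410 UMIs per cell, held 789.7 CPM of IGF2, 719 CPM of IGFBP6 and 2055 CPM of IGFBP7. Monocytes/macrophages held 30.2, 54.6 and 41.8 CPM.

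To ask whether types differed in their change, the P0 against Muscle change was compared between types in a fit without donor. Samples of the same animal were thus treated as independent. For SCs minus FAPs the differences in log2 fold change were 2.70 for IGFBP6 (SE 0.30) and 1.49 for IGFBP7 (SE 0.27), both called and both towards a smaller fall in SCs, where 20.0% of all 8751 genes tested were called. IGF1 and IGFBP4 did not pass the filter in SCs alone, with 57 and 14 UMIs in muscle SCs, and entered this fit through the FAP groups in which they were high. Their differences of 3.62 (SE 1.17) and 3.52 (SE 0.61) are a description, and nothing is read from them against that share. IGF2 did not differ detectably (0.03, SE 0.43, adjusted p = 0.976 in edgeR). For VECs minus FAPs 7 were tested and 2 called, beside 25.6% of all 8613 genes, namely IGFBP5 (5.64, SE 0.87, adjusted p = 1.7e-06 in edgeR) and IGFBP7 (4.41, SE 0.26, adjusted p = 1.4e-16 in edgeR). Both comparisons share the FAP samples. With every sum thinned to equal depth, 1 of 6 genes was called for SCs minus FAPs, IGFBP6, beside 19.5% of all 2231 genes, and the IGFBP7 difference of 1.29 was not (adjusted p = 0.412 in edgeR).

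In SCs no change in the mean of IGFBP1 was called at P0, while a smaller share of cells held its UMIs. Its level was 65.1 ± 76.4 CPM (SD, n = 9) against 105 ± 52.2 CPM, a log2 fold change of -0.88 (SE 0.73, edgeR adjusted p = 0.283), lower in 5 of 9 donors. Donors 8 and 9 had 226 and 148 CPM, while donors 5 and 7 had 4.61 and 6.61 CPM. In muscle 150 of 647 SCs held at least 1 UMI and a single cell held 10. At P0 the 54 SCs with 10 or more UMIs, from 8 donors, carried 2040 of the 2403 IGFBP1 UMIs, and 1 cell had 209. Thinned to 2000 UMIs, 4.90% ± 4.06 of P0 SCs had a UMI, against 18.2% ± 9.27 at Muscle. In the other types at P0 the mean was 1.54 to 3.82 CPM. In FAPs, where it was under the filter, it was 0.103 CPM on 2 UMIs at Muscle and 2.09 CPM on 269 UMIs at P0, higher in 9 of 9 donors without overlap, and was called higher when no filter was applied. The FAP share with a UMI at P0 was 0.502% ± 0.344 when thinned and 4.00% unthinned, against 4.90% and 9.05% of SCs, at median depths of 24188 and 18203 UMIs.

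**Figure D3:**
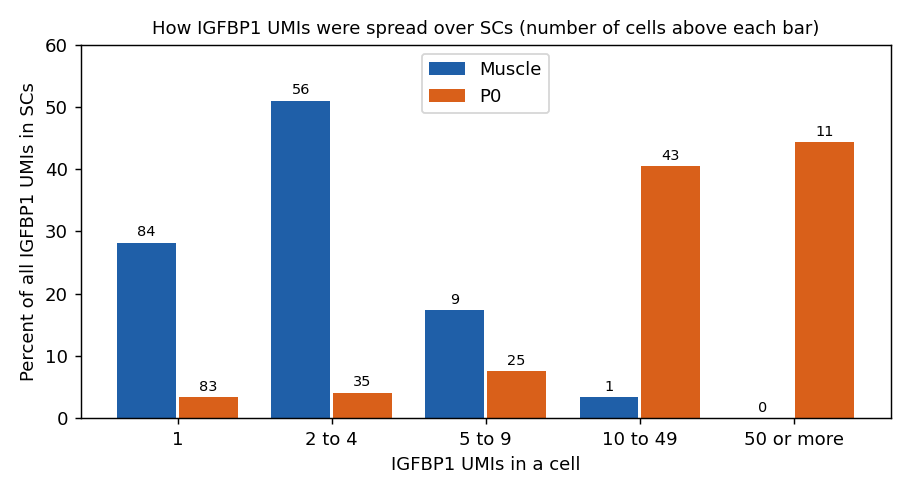
Percent of all IGFBP1 UMIs in SCs (y axis) held by cells with 1, 2 to 4, 5 to 9, 10 to 49, or 50 or more IGFBP1 UMIs (x axis), at Muscle (blue) and P0 (orange); the number above a bar counts the cells. At P0 11 cells held 44.4% and 43 cells held 40.5% of the UMIs, whereas 28.2% at Muscle lay in cells with 1 UMI. Cells at P0 were sequenced more deeply.

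With passaging of the SC cultures the summed level of IGFBP1 fell steeply in SCs, and those of IGFBP2 and IGFBP3 rose. In donors 5, 6 and 10 IGFBP1 was 4.61, 17 and 40.6 CPM at P0 and 0.167, 0 and 0.0972 CPM at P2, with 383 and 8 UMIs. No P2 value reached a P0 value (log2 fold change -7.71, SE 0.97, edgeR adjusted p = 0.00142). Few cells held most of the P0 UMIs of IGFBP1. In donor 6, 2 of 469 SCs held 137 of 161, and in donor 10, 6 of 274 SCs held 160 of 209. The fall in the sum is thus largely a lack of such cells at P2 in these 2 donors. At P5 9 UMIs of IGFBP1 were counted, with at least 1 in each donor. IGFBP2, a binding protein abundant in fetal tissues, was 0.709, 0.739 and 0 CPM at P0 and 44.2, 28.6 and 4.96 CPM at P2 in these 3 donors (log2 fold change 5.61, SE 1.47, adjusted p = 0.0283 in edgeR). IGFBP3 was 11, 11.9 and 15.0 CPM at P0 and 264, 38.6 and 349 CPM at P2 (4.06, SE 1.09, adjusted p = 0.0308 in edgeR). Both rose in 3 of 3 donors, but the calls were not firm: without donor 5 the adjusted p in edgeR was 0.166 for IGFBP2 and 0.211 for IGFBP3, without donor 6 it was 0.176 for IGFBP2, and without donor 10 it was 0.120 for IGFBP3, in fits that called 4.82%, 5.33% and 7.75% of all genes against 9.71% with every donor. Without the filter it was 0.0625 and 0.0683 for the 2 genes, and at equal depth 0.213 and 0.166. All 10 genes were tested, 2 were called higher and 1 lower, beside 5.76% and 3.95% of the 11982 genes. The filter keeps a gene that is high in a single group, and IGFBP1 was near 0 at P2 and IGFBP2 at P0. These counts therefore follow in part from the filter and are given as a description. In the SCs of the same 3 donors, the SC, FAP, SMMC and fibre lists were also higher at P2, without overlap. The 7 SC markers, of which 1 was at 0 at P2, had a median sum of 212 CPM at P0 and 705 CPM at P2. The median sum of the 5 FAP markers was 1473 CPM at P0 and 2411 CPM at P2, that of the 5 SMMC markers 87.7 and 902 CPM, and that of the 6 muscle fibre genes 0.778 and 586 CPM, and their part in these changes was not tested.

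Between P2 and P5 none of the 10 genes was called in SCs of the SC cultures by edgeR, where 3.57% of all genes were, with 0 at an unadjusted p under 0.05 and 0 called by DESeq2. IGFBP2 and IGFBP3 were again higher in 3 of 3 donors, at 85.0, 67.3 and 17.9 CPM and at 594, 178 and 976 CPM for donors 5, 6 and 10. For IGFBP2 the log2 fold change was 1.05 (SE 0.83), and with donor as a replicate block it was 1.25 and was called (adjusted p = 0.00273 in edgeR). At P8 donors 6 and 10 had 127 and 16.1 CPM of IGFBP2 and 171 and 1602 CPM of IGFBP3, on 25 and 36 cells. SCs of unsorted cultures held 13.2 ± 15.1 CPM of IGFBP2 and 7.94 ± 3.70 CPM of IGFBP3 at P2 (SD, n = 3).

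At P2 no difference in IGFBP2 was seen between SCs with and without MYOG, the myogenin gene of differentiating myoblasts. Among SCs of donors 5, 6 and 10, cells with and without a MYOG UMI had 43.5 and 41.2, 27.3 and 26.7, and 5.26 and 4.76 CPM of IGFBP2, unscaled. Of 8 genes tested 0 were called by edgeR (0 at an unadjusted p under 0.05, 0 by DESeq2), with 0.114% of all genes called. DESeq2 called 1.47% of all genes, and edgeR with donor as a replicate block 2.34%. The log2 difference was 0.10 for IGFBP2 (SE 0.88) and 0.15 for IGFBP3 (SE 1.03). Both errors come from a fit without donor, so they hold the spread between the animals. They exceed the differences, so the cells are not shown to be alike. This split was chosen after the data were seen.

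In the FAP cultures IGFBP6 and IGFBP7 recovered in part after P0, and IGFBP5 swung. IGFBP6 in donors 4, 7 and 8 was 102, 122 and 137 CPM at P0 and 492, 979.5 and 1137 CPM at P2 (log2 fold change 2.72, SE 0.30, edgeR adjusted p = 4.4e-05). IGFBP7 was 27.4, 22.2 and 19.0 CPM and then 86.7, 110.1 and 118 CPM (2.07, SE 0.23, adjusted p = 4.9e-05 in edgeR). Neither pair of ranges overlapped, and at P2 to P8 both genes stayed below every muscle donor. IGF1R was 2.29, 2.02 and 2.72 CPM and then 5.51, 6.61 and 7.24 CPM (1.33, SE 0.24, adjusted p = 8.8e-04 in edgeR), higher in 3 of 3 donors, and without donor 7 the change was 1.19 and was not called (adjusted p = 0.0508 in edgeR). Over the same step the 5 SMMC markers in these FAPs, with 1 of the 5 at 0, summed to 50.5 to 77.1 CPM at P0 and 593 to 752 CPM at P2. The 5 FAP markers summed to 3670.4 to 4407 and 14963 to 33766 CPM, and the part of either in these changes was not tested.

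IGF2 fell further in FAP cultures, from 11.5, 6.61 and 4.02 CPM to 0.337, 0.315 and 3.25 CPM (log2 fold change -2.71, SE 0.78, edgeR adjusted p = 0.0126). The call was lost without donor 4 (adjusted p = 0.104 in edgeR) and without donor 7 (adjusted p = 0.110 in edgeR). IGFBP1 had 76 UMIs in these FAPs at P0 and 0 at P2, P5 and P8, which with 3 counts over the P2 group as a floor is at least 40.1-fold lower. Its P0 level there, 1.88 CPM, was within the range of means of the types other than SCs. Of 9 genes tested 3 were called higher and 3 lower, beside 13.1% and 10.0% of the 12025 genes. IGFBP1 passed the filter through P0 alone, so these counts are given as a description.

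IGFBP5 in the 3 FAP donors was 25.4, 33.3 and 17.6 CPM at P0, 0.421, 2.31 and 2.84 CPM at P2, 29.4, 10.1 and 60.4 CPM at P5 and 4.24, 6.31 and 8.90 CPM at P8. The fall to P2 (log2 fold change -3.97, SE 0.72, edgeR adjusted p = 9.5e-04) and the rise to P5 (4.19, SE 0.72, adjusted p = 0.00919 in edgeR) were each seen in all 3 donors without overlap. Without donor 7 the rise was 4.85 and was not called (adjusted p = 0.172 in edgeR). The later fall to P8 was -2.33 (SE 0.71, adjusted p = 0.0771 in edgeR), and DESeq2 called it. IGFBP4 rose from 54.1, 61.7 and 87.9 CPM to 136, 136 and 216 CPM between P2 and P5 (1.22, SE 0.32, adjusted p = 0.0347 in edgeR), a call lost without donor 4 and without donor 7, with adjusted p of 0.0661 and 0.313, without the filter (0.0527) and at equal depth (0.0585). Without donor 7 the fit called 2 of 12089 genes in all (0.0165%, against 3.72% with every donor), so the loss of both calls there is not particular to these genes. With all donors these 2 genes were called higher of 9 tested, beside 1.06% of all genes. From P5 to P8 none of 9 was called by edgeR, beside 1.26% of all genes, with IGFBP5 alone at an unadjusted p under 0.05. IGFBP1 counts among the 9 in both comparisons although it was at 0 throughout.

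IGF1 in FAPs of the FAP cultures was higher in 3 of 3 donors at P2 than at P0 and at P5 than at P2. Donors 4, 7 and 8 had 0, 0 and 0.130 CPM at P0, 0.168, 1.31 and 2.44 CPM at P2, 1.06, 10.2 and 4.47 CPM at P5, and 0.553, 17.9 and 18.9 CPM at P8. No step was called in the fit without a block (log2 fold change 4.34, SE 2.07, from P0 to P2 and 2.02, SE 1.08, from P2 to P5). With donor as a replicate block these steps were 4.54 and 2.05 and were called (adjusted p = 0.00335 and 0.0102 in edgeR). FAPs of the SC cultures held 2 IGF1 UMIs at P5 and 6 at P8.

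**Figure D4:**
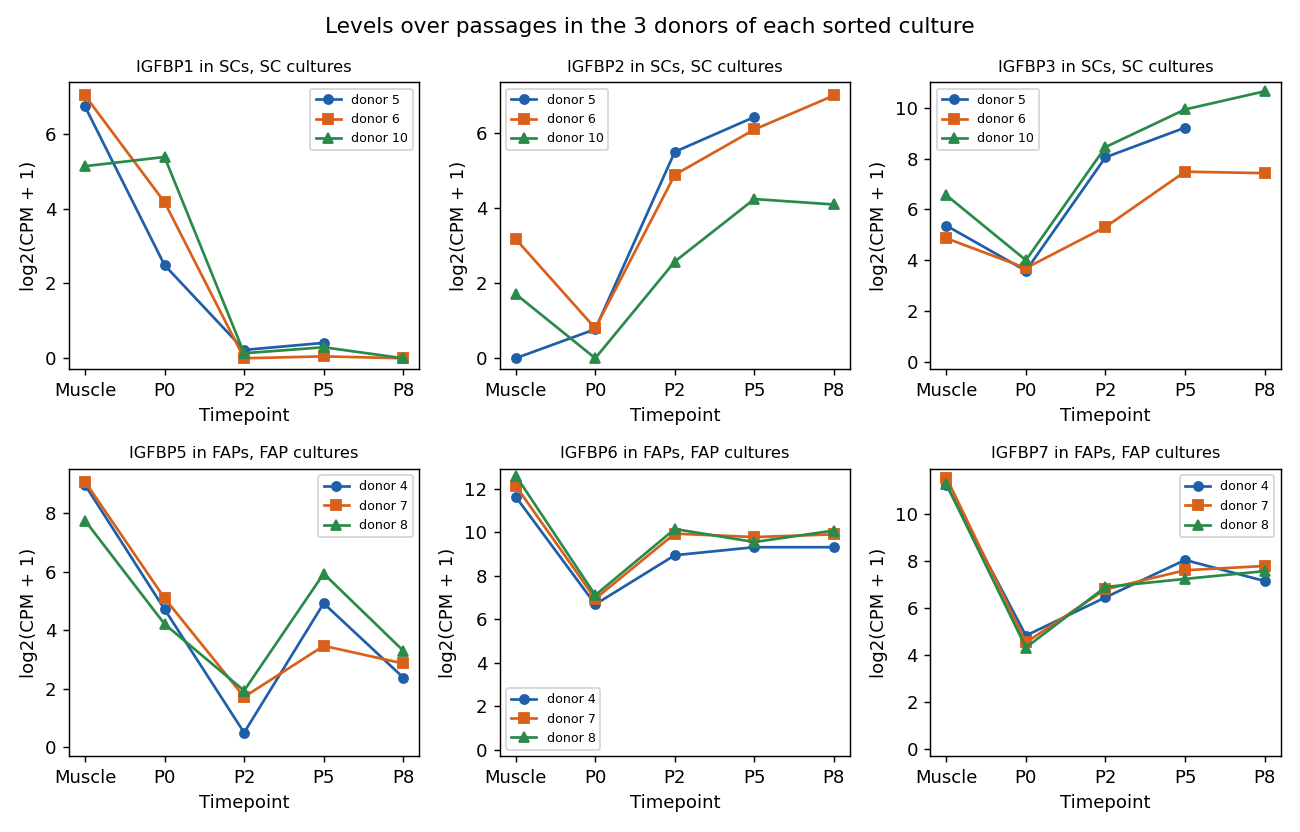
Level as log2(CPM + 1) over timepoints, a line per donor. The upper row shows IGFBP1, IGFBP2 and IGFBP3 in SCs of the SC cultures (donors 5, 6 and 10), the lower row IGFBP5, IGFBP6 and IGFBP7 in FAPs of the FAP cultures (donors 4, 7 and 8). IGFBP1 was at or near 0 from P2, IGFBP2 and IGFBP3 rose after P0, and IGFBP5 in FAPs dipped at P2 and P8; donor 5 had too few SCs at P8.

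FAPs were also found in the SC cultures. At P5 their IGFBP7 ranged from 17.3 to 30 CPM (n = 3 donors), against 150.1 to 263 CPM in FAP cultures and 176 to 302 CPM in unsorted cultures. At P8 the ranges were 31.5 to 80.1, 141 to 220.2 and 104 to 324 CPM. IGFBP4 at P5 was 40.9 to 54.2 CPM in SC cultures and 136 to 216 CPM in FAP cultures, with unsorted cultures between and overlapping the former, at 44.7 to 87.7 CPM. IGFBP6 had the opposite order. At P5 it was 882 to 1749.6 CPM in SC cultures and 636 to 879.6 CPM in FAP cultures, with unsorted cultures at 1022 to 1073 CPM. At P8 it was 1897 ± 1086 CPM in SC cultures and 892 ± 230.4 CPM in FAP cultures (SD, n = 3), with overlapping ranges. At P5 the FAPs of donors 5, 6 and 10 were 593, 31 and 70 cells. Over all 9 donors with P5 FAPs the 5 FAP markers summed to 7715 to 55556 CPM, and in FAP cultures to 42462 to 55556 CPM. The lowest donor, outside the FAP cultures, lay within the range of P5 SCs, 4494 to 7922 CPM. The part of unequal FAP marker levels in these differences was not tested. The cultures came from different animals and were grown on different coatings, and the differences themselves were not tested.

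Sorting at the surface of the cell gave a comparison that does not rest on the annotation. At P2 all singlets of the SC cultures, 98.3% to 99.4% of them annotated as SCs, were set against all singlets of the FAP cultures, in which that share was 2.09% to 10.4%. IGFBP7 was 4.94, 3.29 and 4.86 CPM in donors 5, 6 and 10 and 72.9, 85.7 and 95.2 CPM in donors 4, 7 and 8 (unscaled CPM), which was a log2 difference of -4.44 (SE 0.22, 21.8-fold, edgeR adjusted p = 2.4e-04). IGFBP6 was 119, 239 and 181 CPM against 426, 776 and 929 CPM (-2.16, SE 0.38, adjusted p = 0.00742 in edgeR). IGFBP2 was the gene of the SC cultures, at 40.9, 26.7 and 4.76 CPM against 1.10, 0.807 and 0 CPM (4.98, SE 1.06, adjusted p = 0.0147 in edgeR), and without donor 7 the adjusted p in edgeR was 0.0630. None of the 3 pairs of ranges overlapped.

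IGFBP3 did not separate the sorted cultures, with 246, 39.6 and 336 CPM in SC cultures and 28.1, 39.9 and 274 CPM in FAP cultures (log2 difference 0.68, SE 1.05). IGFBP4 was 12.2, 45.6 and 8.78 CPM against 47.2, 49 and 71.4 CPM, not called (-1.50, SE 0.63, adjusted p = 0.110 in edgeR). IGF2, IGF1R and IGFBP5 differed by 1.29 (SE 1.24), -0.35 (SE 0.27) and 0.51 (SE 0.72). IGF1 and IGFBP1 did not pass the filter. Of 8 tested, 1 was called higher and 2 lower, beside 6.99% and 11.2% of 12199 genes. The filter keeps a gene that is high in a single group, as IGFBP2 was here, so these counts are given as a description. Each culture type has its own 3 animals and its own coating, so sort, animal and coating cannot be told apart.

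**Figure D5:**
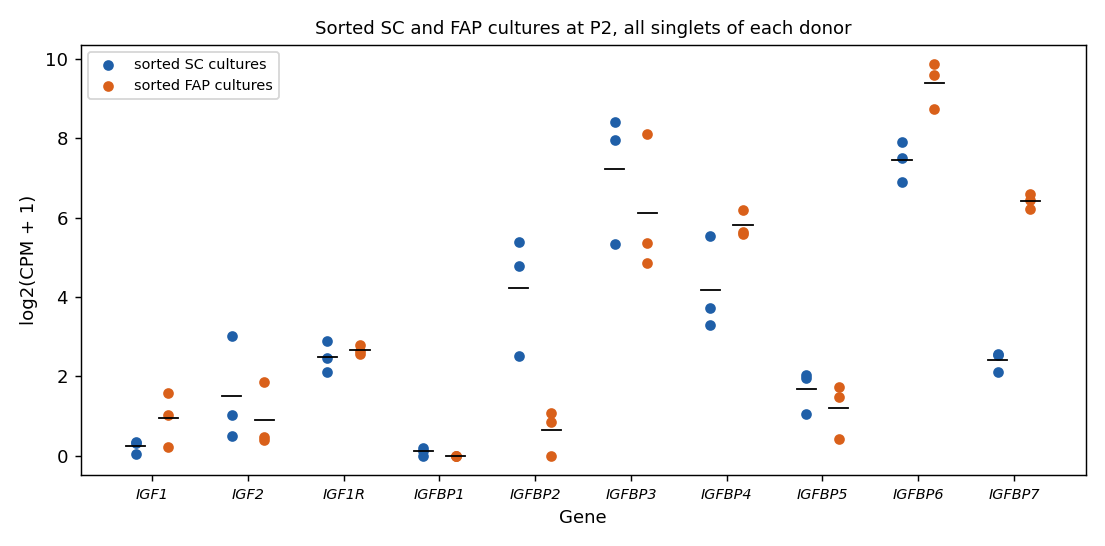
Level of the 10 genes, as log2(CPM + 1) of all singlets, in sorted SC cultures (blue, donors 5, 6 and 10) and sorted FAP cultures (orange, donors 4, 7 and 8) at P2; points are donors and bars are means of the log values. IGFBP2 lay higher in the SC cultures and IGFBP6 and IGFBP7 lower, without overlap, whereas IGFBP3 overlapped.

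Of 23 other genes of the pathway (the second receptor, binding partners, proteases, adaptors and downstream kinases), 12 were tested at P0 against Muscle in FAPs and 5 called lower, 0 higher, beside 22.5% of all genes lower. The largest changes were in IGFALS, the acid-labile subunit that holds IGFs with IGFBP3 or IGFBP5 in a ternary complex (log2 fold change -8.94, SE 0.42), HTRA1, a protease of binding proteins (-2.88, SE 0.10), and PIK3R1, the regulatory subunit of PI3K (-2.80, SE 0.16). In SCs 3 of 6 were called lower, beside 18.5% of all genes, PIK3R1 (-1.95, SE 0.18), IGF2R, the receptor that clears IGF2 (-1.32, SE 0.13), and FOXO1, a transcription factor restrained by AKT (-1.12, SE 0.18). VECs had 2 lower and 1 higher of 8, beside 19.6% and 15.6% of all genes, IGF2R (-2.80, SE 0.17), HTRA1 (-1.46, SE 0.23) and the adaptor GRB10 (1.15, SE 0.21). SMMCs had 2 lower of 5 (21.3% of all genes) and LECs 1 lower of 2 (14.8%), while the 1 gene tested in monocytes/macrophages was not called.

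In the FAP cultures 4 of 17 of these genes were called higher and 1 lower from P0 to P2, beside 13.1% and 10.0% of all genes. STC1, stanniocalcin, an inhibitor of an IGFBP protease, fell (log2 fold change -4.83, SE 0.47), and IGFALS (4.05, SE 0.88) and HTRA1 (2.06, SE 0.30) rose. In SCs of the SC cultures 2 of 17 were called higher, beside 5.76% of all genes, the growth hormone receptor GHR (1.21, SE 0.17) and HTRA1 (1.06, SE 0.21). Between the sorted cultures at P2 IGFALS (-3.26, SE 0.91) and the insulin receptor substrate IRS2 (-2.26, SE 0.40) were lower and STC1 (2.36, SE 0.71) higher in SC cultures, of 18 tested, beside 11.2% of all genes lower and 6.99% higher. None of 17 was called in the 3 later passage steps by edgeR, where 3.57%, 3.72% and 1.26% of all genes were, so nothing is read from these counts.

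Across 19 combinations of cell type and timepoint and 10592 genes, the gene with the pattern most like that of IGF2 was RASD1 (Pearson r = 0.961 of mean log2 CPM). For IGFBP7 it was RARRES2 (r = 0.923), for IGFBP3 AAGAB (0.917), for IGFBP5 COL18A1 (0.913), for IGFBP2 SRPK3 (0.891), for IGFBP6 CAMK2N1 (0.891), for IGF1 SESN3 (0.862), for IGFBP4 C16H1orf21 (0.856) and for IGFBP1 CHODL (0.832). The points share libraries, so these are descriptions. IGF1R did not pass the filter of this comparison.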

How the data were processed

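The authors aligned reads of 5 pooled 10x 3′ libraries to ARS-UCD1.2 with Cell Ranger 6.0.1, assigned barcodes to animals by genotype, and deposited raw UMI counts per gene and barcode together with cell tables giving cell type, animal and the percent of mitochondrial UMIs. Cells in those tables were used as deposited; cells assigned to a single genotype were kept there, and no further doublet caller was run. The 8 sequencing records, some of them repeat runs, fall into 5 groups by timepoint. A combined table of whole numbers with nearly level totals was not used.

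UMIs were summed per animal, type and timepoint (at least 10 cells; totals from 42591 to 31783784 UMIs), so rare types are the least precise. Sums were compared in edgeR 4.0.16 (robust quasi-likelihood F test, TMM factors, filterByExpr, Benjamini-Hochberg adjustment over all genes tested) under R 4.3.3. The 15 comparisons were P0 against Muscle by type and its differences between types, passages of the sorted cultures, sorted cultures at P2, and a MYOG split. The SE of a log2 fold change was derived from its F statistic. Alternatives were RLE factors, DESeq2 1.42.0, no filter, at least 30 cells, equal depth, donor as a replicate block, and leaving out each donor of the sorted cultures. Calves were not compared with adults, nor was sex fitted, because groups were taken from the labels and cell tables, which give neither; the study's methods describe both. The fits were tested on simulated data.

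For shares of cells, each cell was thinned to 2000 UMIs and shallower cells were left out; counting error alone was considered for counts of 0. The 10 genes (members), the marker and pathway lists and the early response genes were chosen with earlier results of these data known. All 10 members are accounted for; of the 23 other pathway genes at most 3 called genes are named per comparison, and the gene of highest Pearson r is named per member. IGFBP1-high cells (10 or more UMIs) were defined after the data were seen. Donors are the same animals at Muscle and P0, so the block pairs real samples; the median correlation of a donor's deviations at the 2 timepoints was 0.12 in FAPs, 0.034 in SCs, 0.15 in VECs and 0.079 in SMMCs.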

Additional observations from a re-analysis of the deposited data

Results flagged for a closer look

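In 68 groups of 4 to 10 donors with a mean of at least 10 CPM, 8 had a donor standing apart by Dixon's test. For normally distributed values chance alone flags about 1 in 20. The test used CPM without logs, some on few UMIs, so that rate may not hold here and the count is not read as an excess. IGF1 in muscle FAPs was 246 CPM in donor 4, with the next donor at 108 CPM. IGF1 in muscle LECs was 35.8 CPM in donor 10, on 3 UMIs, below 76.4 CPM. In muscle SMMCs, IGFBP2 was 45.1 CPM in donor 4, next 21.9 CPM, and IGFBP3 was 219 CPM in donor 5, next 113 CPM. At P0, IGFBP5 in VECs was 567 CPM in donor 2, next 279 CPM, IGFBP6 in SMMCs was 596 CPM in donor 9, next 219 CPM, and IGFBP6 in LECs was 12.8 CPM in donor 1, on 5 UMIs, below 28.0 CPM. IGFBP7 in muscle monocytes/macrophages was 156 CPM in donor 2, next 74.4 CPM.

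The P0 against Muscle change differed between cell types for 4 results in edgeR. For SCs minus FAPs the difference in log2 fold change was 2.70 for IGFBP6 (adjusted p = 4.7e-09) and 1.49 for IGFBP7 (1.9e-05). The values of 3.62 for IGF1 and 3.52 for IGFBP4 are not counted as differences, because both genes were under the filter in SCs alone and entered through FAPs. At equal depth 1 of 6 genes tested was called for SCs minus FAPs, IGFBP6, beside 19.5% of all genes. For VECs minus FAPs it was 5.64 for IGFBP5 (1.7e-06) and 4.41 for IGFBP7 (1.4e-16). Of all genes, 20.0% were called for SCs minus FAPs and 25.6% for VECs minus FAPs, so the number of genes called here is no result about the group.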

How the results depend on the processing

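Among refits in which a called member was tested, 283 kept the call and 19 lost it with the same direction. Refits in which it did not pass the filter, or that could not be run, are not in this tally. At equal depth 32 kept the call and 4 lost it, where DESeq2 refitted 45. The tally includes IGF1 and IGFBP4 for SCs minus FAPs. The number of members called moved by over 1.5 times in these cases. Without the filter it was 7 in SCs (4 with it), 6 in SMMCs (3) and 6 in monocytes/macrophages (2) for P0 against Muscle, 1 in SCs from P0 to P2 (3) and 1 in FAPs from P2 to P5 (2). The share of all genes called in those fits was 33.2% (34.3% with the filter), 29.3% (36.4%), 24.3% (34.6%), 6.92% (9.71%) and 1.91% (3.72%). At equal depth it was 0 in monocytes/macrophages, where none passed the filter, 2 in LECs (4), 1 for SCs minus FAPs (2, leaving aside IGF1 and IGFBP4), 0 in SCs from P0 to P2 (3, with 4 tested) and 1 in FAPs from P2 to P5, beside 36.1%, 34.0%, 19.5%, 5.91% and 2.00% of all genes. With donor as a replicate block it was 1 in monocytes/macrophages and 1 in SCs from P2 to P5 (0), beside 33.8% and 4.92% of all genes. In the other types the block left the P0 against Muscle counts at 7 in FAPs, 4 in SCs, 5 in VECs, 3 in SMMCs and 4 in LECs. DESeq2 called 1 in FAPs from P5 to P8 (0), beside 3.04% of all genes (1.26% in edgeR). Leaving out a donor gave 0 to 4 in FAPs from P2 to P5, beside 1.86% of all genes without donor 4, 0.0165% without donor 7 and 3.09% without donor 8. Equal depth and the filter change how many genes are tested; other causes were not tested. At least 30 cells could not be fitted for monocytes/macrophages and LECs, and calves against adults were not run. Plain CPM moved 1 level by over 1 SD and left 79 within it, and unthinned cells moved 52 shares and left 28. Depth limits IGF1R, IGFBP2 and IGF1 at Muscle and P0.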

Other observations

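The 54 P0 SCs with 10 or more IGFBP1 UMIs came from 8 of 9 donors, with 20 from donor 8 and 14 from donor 9. They were shallower than SCs without an IGFBP1 UMI, at a median of 10403.5 against 18841 UMIs. These cells were picked after their values were seen, so what follows is a description without a test. In the 4 donors with at least 5 such cells (46 cells, against 957 without a UMI), 576 genes had at least 100 UMIs in the picked cells and 225 were higher in them in all 4 donors. That floor was set in the picked cells alone and favours genes high in them, so the count and the ranking follow in part from it. The gene with the highest ratio was another binding protein, IGFBP3, at 714 against 9.53 CPM (74.9-fold). It was followed by ADAMTS5, a matrix protease (19.3-fold), FBXO32, the atrogin-1 ubiquitin ligase of muscle atrophy (18.9-fold), TP53INP1 (15.6-fold), TM4SF1 (13.9-fold), SOX4 (13.6-fold), CITED2 (11.3-fold), GADD45A, a growth arrest gene (11.1-fold), DDIT3, a transcription factor of the integrated stress response (10.1-fold), and CCDC112 (9.88-fold), which completes the 10 highest.

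Marker sums placed these cells neither in another type nor clearly among SCs. The 5 FAP markers summed to 1513 CPM in them and 1775 CPM in SCs without an IGFBP1 UMI, the 5 VEC markers to 20.0 and 10.5 CPM, the 5 SMMC markers to 6.66 and 50.6 CPM, and the 7 SC markers to 79.9 and 180.1 CPM. Of these 7, 2 were at 0 in the picked cells. By donor, the SC marker sum at P0 was 148 to 325 CPM in SCs and 22.4 to 32.5 CPM in FAPs. The 10 early response genes were at 1001 and 973 CPM, and all 6 fibre genes were at 0 in the picked cells. PAX7 was seen in none of the 54 cells, MYF5 in 29.6% and MYOG in 1.85%, against 6.47%, 55.3% and 0.767% of SCs without a UMI, in cells of unequal depth. In muscle, SCs with 1 to 9 IGFBP1 UMIs had PAX7 in 6.04%, MYF5 in 80.5% and MYOG in 4.03%, against 6.64%, 63.0% and 15.7% without, at median depths of 3663 and 3949 UMIs.

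In P0 FAPs the 5% of cells with the most IGFBP3 UMIs held 64.8% of 11300, with up to 356 in a cell, and the 5% with the most IGFBP6 UMIs held 23.3% of 17249. Such a share depends on the number of UMIs, so the 2 values are given side by side without a test.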
